A study of Mus musculus with 3 samples.

Results

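Chemokine ligands are small secreted proteins that direct the movement of white blood cells, and their transcripts were followed in cultured mouse liver cells given a bile acid. The members are every gene whose symbol begins with Ccl, Cxcl, Cx3cl or Xcl and a digit, which gave 35 of the 37620 genes in the tables, 1 of them (Ccl19-ps1) a pseudogene. The cells were primary hepatocytes of C57BL/6 mice at passage 1, plated on gelatin in medium with serum and insulin after collagenase perfusion of the liver. There were 2 mRNA sequencing libraries from cells given tauroursodeoxycholic acid (TUDCA), labelled 100 mM for 24 h, and 1 library from cells given the solvent DMSO, with no time on its label. Time in culture and TUDCA therefore cannot be told apart, and the dose is printed as labelled. The series speaks of 2 independent experiments without saying which library belongs to which, so p-values measure only the spread of these libraries, which may be technical.

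Chemokines are grouped by the spacing of conserved cysteines into CC, CXC, CX3C and C families, and most act through G protein-coupled receptors on leukocytes. CC ligands of the receptor Ccr2 recruit monocytes, CXC ligands that carry the tripeptide ELR recruit neutrophils through Cxcr2, and ligands of Cxcr3 recruit activated T cells. In liver, hepatocytes, Kupffer cells, stellate cells and endothelium can all make chemokines, and the transcription factor NF-kappaB drives many of the inducible ones. TUDCA is a taurine-joined bile acid that eases protein folding as a chemical chaperone.

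Expression is given as RPKM, the read number divided by gene length and by library size. The library totals behind these values were 9757547 and 10575699 reads for TUDCA replicates 1 and 2 and 10774289 reads for DMSO. The RPKM values gave back whole reads for each gene, and read numbers below are the smallest whole numbers that the values allow. A read over 1 kb was worth 0.102 and 0.0946 RPKM in the TUDCA libraries and 0.0928 RPKM in DMSO. The summed level of 8 hepatocyte markers was 11262 and 10196 RPKM in TUDCA and 9681 RPKM in DMSO. That of 9 keratinocyte markers, nearly all of it Sprr1a, was 5611 and 5646 RPKM in TUDCA and 8916 RPKM in DMSO. Of these 9, 3 were listed at 0 in all libraries. Pairs of TUDCA values are those of replicates 1 and 2 in that order, and all DMSO values come from 1 library without a replicate.

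Of the 35 members, 19 averaged 1 RPKM or more across the libraries and were tested. All 19 also had at least 1 RPKM in the DMSO library, so none passed only through the TUDCA libraries. Another 8 lay below that level but above 0 in at least 1 library, and 8 were listed at 0 in all 3. The expressed set was dominated by 3 genes. Ccl2, Cxcl1 and Ccl5 together held 76.6% and 76.3% of the summed RPKM of all members in the TUDCA libraries and 69.1% in DMSO. Ccl2 ranked highest by mean level, and 3.09% of the 11300 genes tested had a higher one. Cxcl16, Ccl9, Cxcl10, Ccl7 and Cxcl2 followed with means of 51.5 to 21.1 RPKM, Ccl6 and Cxcl5 with 14.9 and 12.6 RPKM, and the other 9 with means between 6.55 RPKM (Cxcl12) and 1.67 RPKM (Cxcl9).

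**Figure D1:**
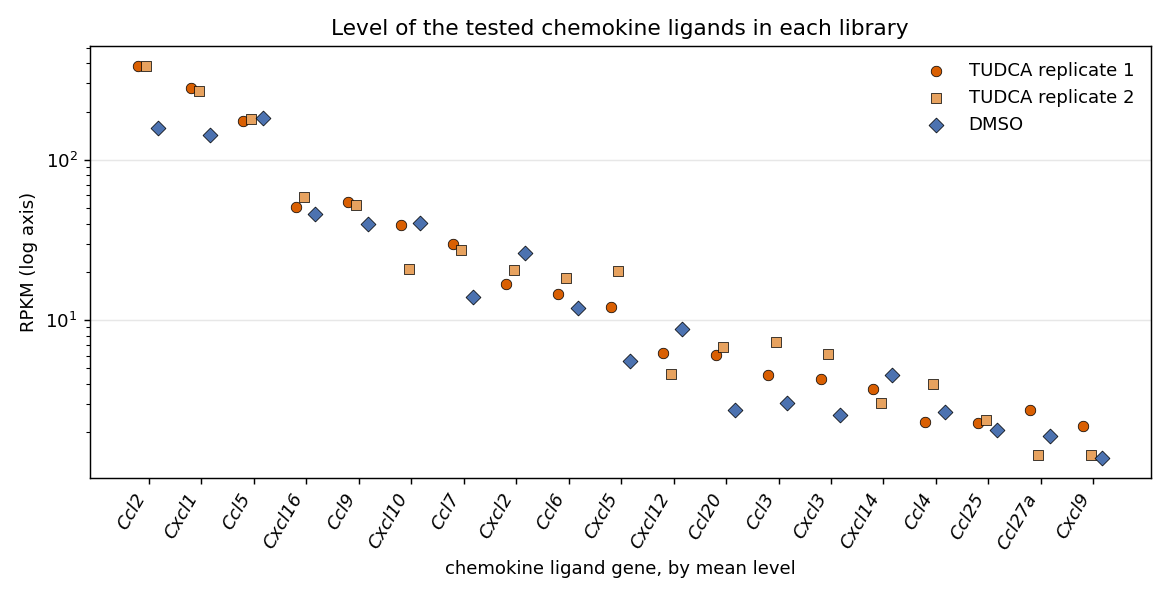
Level in RPKM on a log axis of the 19 tested chemokine ligands, ordered by their mean, with circles for TUDCA replicate 1, squares for TUDCA replicate 2 and diamonds for DMSO. Ccl2 stood at 383.2 and 387.1 RPKM in the TUDCA libraries and 158.2 RPKM in DMSO, whereas the symbols of Ccl5 lie together between 174.7 and 183.6 RPKM.

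With TUDCA, 5 chemokine ligand transcripts rose. They were Ccl2 and Ccl7, which attract monocytes, Cxcl1 and Cxcl5, which attract neutrophils, and Ccl20, the ligand of Ccr6, and no member fell past the threshold. These 5 genes summed to 712.7 and 711.0 RPKM in the TUDCA libraries, against 323.8 RPKM in DMSO. The 14 other tested members summed to 378.9 and 380.4 RPKM in TUDCA, against 375.0 RPKM in DMSO. The test on these same values made this split, so the sums are no separate evidence for it. Much of the sum of the 14 was Ccl5, with 174.7 and 180.0 RPKM in TUDCA and 183.6 RPKM in DMSO. Its other genes lay on both sides of DMSO, such as Cxcl3 (log2 fold change 0.78) and Cxcl2 (-0.47). Values were tested as log2(RPKM + 1) with limma across all 11300 genes, at a Benjamini-Hochberg adjusted p of 0.05. Of the 19 tested members 5 were called higher and none lower, beside 1.77% of all genes tested called higher and 0.876% called lower. An unadjusted p below 0.05 was found for 9 members, 2 of them lower (Cxcl10 and Cxcl12), beside 10.8% of all genes tested, and voom on the whole reads also called no member lower. The median log2 fold change was 0.24 over the tested members and 0.04 over all genes tested. Both TUDCA libraries lay above DMSO for 12 tested members (40.5% of all genes tested) and both lay below it for 5 (30.4% of all genes tested).

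In bulk RNA, more cells of a type and more RNA per cell cannot be told apart. These calls rest on the filter at 1 RPKM, at which limma gave every gene the common spread of its expression level, an SD of 0.159 to 0.265 on the log2 scale, from 1 residual degree of freedom in the TUDCA pair. With genes down to 0.3 RPKM, or with no filter, limma called none of the members. Its unadjusted p was then below 0.05 for 9 of 25 and 7 of 27 members, beside 1152 of 13384 and 1696 of 19146 genes. A rule of size without a test, at least 2-fold from DMSO, and the same way, in both TUDCA libraries, was met on the RPKM + 1 scale by Ccl2 alone, beside 0.77% of all genes tested that were higher by it and 0.283% that were lower. With a pseudocount of 0.1 in place of 1 it was met by 3 members, Ccl2, Cxcl5 and Ccl20. The share of all genes that met it at that pseudocount was not counted, so these 3 have no background beside them.

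**Figure D2:**
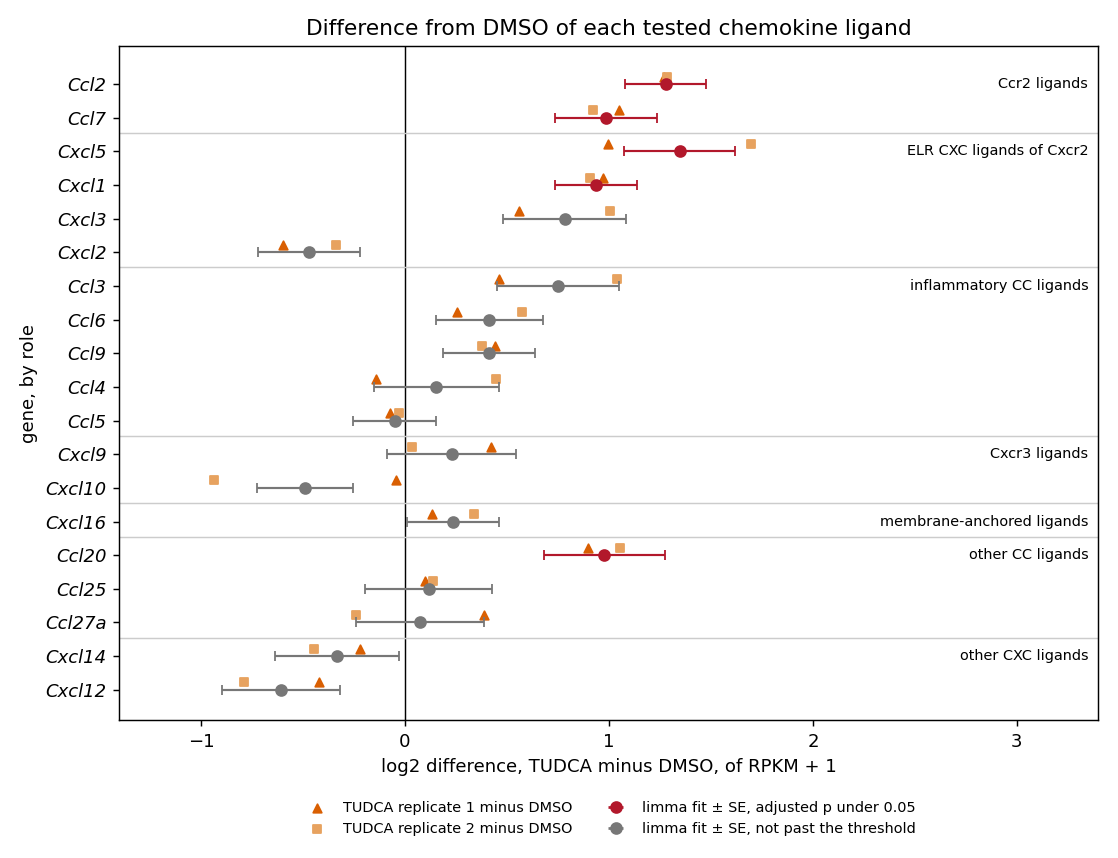
Log2 difference of RPKM + 1 between TUDCA and DMSO for the 19 tested chemokine ligands, grouped by role. Triangles and squares are the single TUDCA libraries against the same DMSO library, and circles with bars are the limma fold change ± SE, red where the adjusted p is under 0.05. Ccl2 (1.28), Ccl7 (0.99), Cxcl5 (1.35), Cxcl1 (0.94) and Ccl20 (0.98) are red, and Cxcl2, Cxcl10, Cxcl12, Cxcl14 and Ccl5 lie left of 0 in both libraries.

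The Ccr2 ligands were the most abundant group in the TUDCA libraries, with summed levels of 413.2 and 414.6 RPKM there and 172.3 RPKM in DMSO. Ccl2 (ENSMUSG00000035385), also known as MCP-1 and the main attractant of Ccr2-bearing monocytes, had 383.2 and 387.1 RPKM in the TUDCA libraries, against 158.2 RPKM in DMSO. The TUDCA libraries hardly differed from each other and both lay far above DMSO. The mean of 385.2 ± 2.77 RPKM (SD, n = 2) was 2.43 times the DMSO value, a log2 fold change of 1.28 ± 0.20 (limma adjusted p = 4.79e-08). This was also the member measured with the most reads, 3571 and 3910 in TUDCA and 1628 in DMSO. The counting intervals of the ratio to DMSO were 2.28 to 2.57 and 2.31 to 2.59 (95%, exact Clopper-Pearson on the split of reads). Such intervals cover counting error only, since reads without molecular identifiers are not independent molecules.

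Ccl7 (ENSMUSG00000035373, MCP-3), a second monocyte attractant, had 29.8 and 27.3 RPKM in the TUDCA libraries, against 13.9 RPKM in DMSO. Its TUDCA values were close to each other and about as far above DMSO, in proportion, as those of Cxcl1. The mean of 28.5 ± 1.80 RPKM (SD, n = 2) gave a ratio of 2.05 and a log2 fold change of 0.99 ± 0.25 (limma adjusted p = 0.00461), from 233 and 231 reads in TUDCA and 120 in DMSO. The third Ccr2 ligand, Ccl12 (MCP-5), had 1 read in each of the 3 libraries, so a change in it was not detectable at this depth.

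Among the ELR-bearing CXC ligands, which attract neutrophils, Cxcl1 and Cxcl5 rose and their neighbours Cxcl2 and Cxcl3 did not pass the test. Cxcl1 (ENSMUSG00000029380, KC) had 281.5 and 269.5 RPKM in the TUDCA libraries, against 143.4 RPKM in DMSO. The mean of 275.5 ± 8.53 RPKM (SD, n = 2) was 1.92 times the DMSO value, a log2 fold change of 0.94 ± 0.20 (limma adjusted p = 0.000318). With 2618 and 2716 reads in TUDCA and 1472 in DMSO, the counting intervals of its ratio were 1.84 to 2.09 and 1.76 to 2.00.

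Cxcl5 (ENSMUSG00000029371, LIX) had the highest fold change of the tested members, with 12.1 and 20.3 RPKM in the TUDCA libraries, against 5.56 RPKM in DMSO. Both TUDCA values were above DMSO, and they differed from each other by 0.70 on the log2 scale, more than for all but 2.81% of the genes tested. The log2 fold change was 1.35 ± 0.27 (limma adjusted p = 8.55e-05). With replicate 1 left out it was 1.70, and with replicate 2 left out 1.00. The SE comes from the spread pooled over genes of like level and is too small for a gene whose replicates differ this much. The counting intervals of the ratio, 1.69 to 2.81 for replicate 1 and 2.90 to 4.63 for replicate 2, did not overlap.

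Cxcl3 had 4.27 and 6.19 RPKM in TUDCA, against 2.58 RPKM in DMSO, and missed the threshold (log2 fold change 0.78 ± 0.30, limma adjusted p = 0.182). It rested on 42 and 66 reads in TUDCA and 28 in DMSO. Cxcl2 (MIP-2) lay on the other side, with 16.9 and 20.4 RPKM in the TUDCA libraries, against 26.1 RPKM in DMSO. Both TUDCA values were below DMSO, yet the difference did not pass the test either (log2 fold change -0.47 ± 0.25, limma adjusted p = 0.505). The counting intervals of its ratio, 0.550 to 0.762 and 0.673 to 0.908, lay below 1 and did not overlap those of Cxcl1. Cxcl15, another CXC gene of the same run on the chromosome, was listed at 0 in all 3 libraries. Cxcl1, Cxcl2 and Cxcl3 are paralogs, and the sources used here do not give how reads that fit more than 1 of them were counted.

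The promoters of this run are shown because a rise of Cxcl1 beside lower values of Cxcl2 was seen between genes with like promoter sequences. The letters are the 120 bases before the gene start from the RefSeq promoter table (GRCm38.p6, plus strand, 5′ to 3′), with a kappaB motif in capitals. The motif searched was GGGNN followed directly by TTTCC, on either strand (reverse complement GGAAA followed by NNCCC), where N is any base, and matches did not overlap here. Ccl20, a called member of another chromosome, is added for comparison, and Cxcl2 and Cxcl3 were added after their values were seen.
Cxcl1, chr5:90891125-90891244: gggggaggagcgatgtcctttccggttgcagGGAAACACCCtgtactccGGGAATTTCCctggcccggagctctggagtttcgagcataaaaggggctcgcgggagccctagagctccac
Cxcl2, chr5:90903779-90903898: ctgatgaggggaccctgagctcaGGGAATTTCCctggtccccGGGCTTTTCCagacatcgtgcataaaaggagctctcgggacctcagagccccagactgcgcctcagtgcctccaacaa
Cxcl3, chr5:90785981-90786100: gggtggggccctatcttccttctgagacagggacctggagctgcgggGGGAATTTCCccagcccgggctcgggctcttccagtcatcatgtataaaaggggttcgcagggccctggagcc
Ccl20, chr1:83116646-83116765: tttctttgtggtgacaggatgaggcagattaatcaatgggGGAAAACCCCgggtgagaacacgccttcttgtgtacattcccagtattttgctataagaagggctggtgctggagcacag

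The same 10 letters, GGGAATTTCC, began 71, 97 and 73 bases before the start of Cxcl1, Cxcl2 and Cxcl3. Cxcl1 and Cxcl2 each held a second match, beginning 89 and 78 bases before the start, and Ccl20 held 1 beginning 80 bases before it. Over windows of 250 bases before to 50 after the start, 5 of the 23 members in the RefSeq table held the motif, with Ccl9 as the fifth, beside 1.89% of all 27025 genes in the table. The motif was thus in called members (Cxcl1 and Ccl20) and in members that were not called (Cxcl2, Cxcl3 and Ccl9). A match is a description of letters and not a bound site. Of the tested members, Ccl2, Ccl4, Ccl5, Ccl7, Cxcl5 and Cxcl16 were not matched in the table.

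Ccl20 (ENSMUSG00000026166), which attracts Ccr6-bearing lymphocytes and dendritic cells, had 6.02 and 6.83 RPKM in the TUDCA libraries, against 2.77 RPKM in DMSO. Both TUDCA libraries were more than 2-fold above DMSO on the RPKM scale, with ratios of 2.17 and 2.47. The log2 fold change, lowered by the pseudocount at this level, was 0.98 ± 0.30 (limma adjusted p = 0.0397). This was the weakest of the 5 calls, from 65 and 80 reads in TUDCA and 33 in DMSO, and quantile normalization and voom ended it (adjusted p = 0.116 and 0.0958).

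None of the 5 other inflammatory CC ligands, which attract monocytes, macrophages and T cells, was called. Their summed level was 250.8 and 261.8 RPKM in TUDCA and 241.3 RPKM in DMSO, most of it Ccl5 (RANTES). Ccl5 had 174.7 and 180.0 RPKM in the TUDCA libraries, against 183.6 RPKM in DMSO (log2 fold change -0.05 ± 0.20, limma adjusted p = 0.983). The counting intervals of its ratio were 0.874 to 1.04 and 0.903 to 1.06, both below those of Ccl2, a gene of similar level in DMSO.

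Ccl3 (MIP-1 alpha) had 4.55 and 7.28 RPKM in TUDCA, against 3.03 RPKM in DMSO, and did not pass (log2 fold change 0.75 ± 0.30, limma adjusted p = 0.209). Its relative Ccl4 (MIP-1 beta) had 2.33 and 4.01 RPKM in TUDCA, against 2.67 RPKM in DMSO, so its TUDCA libraries lay on either side of DMSO. Replicate 2 was above replicate 1 in both genes, by 0.58 and 0.59 on the log2 scale. This rested on few reads, 34 and 59 for Ccl3 and 15 and 28 for Ccl4. The rodent Ccr1 ligands Ccl6 and Ccl9 were higher in both TUDCA libraries without being called. Ccl6 had 14.5 and 18.2 RPKM in TUDCA and 11.9 RPKM in DMSO (limma adjusted p = 0.641). Ccl9 had 54.7 and 52.3 RPKM in TUDCA and 40.0 RPKM in DMSO (limma adjusted p = 0.536).

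The Cxcr3 ligands, which interferons induce, were not called. Cxcl10 (IP-10) had 39.3 and 20.7 RPKM in the TUDCA libraries, against 40.6 RPKM in DMSO. Replicate 1 was thus near the DMSO level and replicate 2 well below it, with 271 and 155 reads in TUDCA and 309 in DMSO. The gap of 0.89 on the log2 scale between the TUDCA libraries was exceeded by only 1.05% of the genes tested. The log2 fold change was -0.49 ± 0.24 (limma adjusted p = 0.410), -0.94 with replicate 1 left out and -0.05 with replicate 2 left out. As for Cxcl5, the SE comes from the spread pooled over genes of like level and is too small for such a gap. Cxcl9 had 2.19 and 1.44 RPKM in TUDCA and 1.38 RPKM in DMSO, and Cxcl11 had 0.610 and 0.492 RPKM in TUDCA and 0.449 RPKM in DMSO, below the level tested. In GENCODE M21, 133 exonic bases of Cxcl10 lie opposite Art3 and 1582 of Cxcl11 lie opposite Gm2673. Without a stated strand setting, reads of such a pair cannot be told apart.

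Cxcl12 (SDF-1), the ligand of Cxcr4 that retains blood progenitors and is usually made by stromal cells, had 6.27 and 4.64 RPKM in TUDCA, against 8.75 RPKM in DMSO. Both TUDCA libraries were below DMSO, but the difference missed the threshold (log2 fold change -0.61 ± 0.29, limma adjusted p = 0.399). The counting intervals of its ratio were 0.599 to 0.856 and 0.437 to 0.642. Cxcl14, an epithelial chemokine, had 3.74 and 3.05 RPKM in TUDCA and 4.52 RPKM in DMSO (limma adjusted p = 0.816).

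Cxcl16, a membrane-anchored ligand of Cxcr6 on T and NKT cells, had 50.4 and 58.3 RPKM in TUDCA and 45.9 RPKM in DMSO and did not pass (log2 fold change 0.24 ± 0.22, limma adjusted p = 0.832). In GENCODE M21 it shares 552 exonic bases with Zmynd15 on the opposite strand. The thymic and gut chemokine Ccl25, of which 204 exonic bases lie opposite Elavl1, had 2.29 and 2.38 RPKM in TUDCA and 2.08 RPKM in DMSO. The skin chemokine Ccl27a, which has near-identical copies in the mouse genome and 8 exonic bases opposite Il11ra1, had 2.77 and 1.44 RPKM in TUDCA and 1.88 RPKM in DMSO. Neither differed beyond the spread (limma adjusted p = 0.969 and 0.984), and each rested on at most 18 reads in a library.

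**Figure D3:**
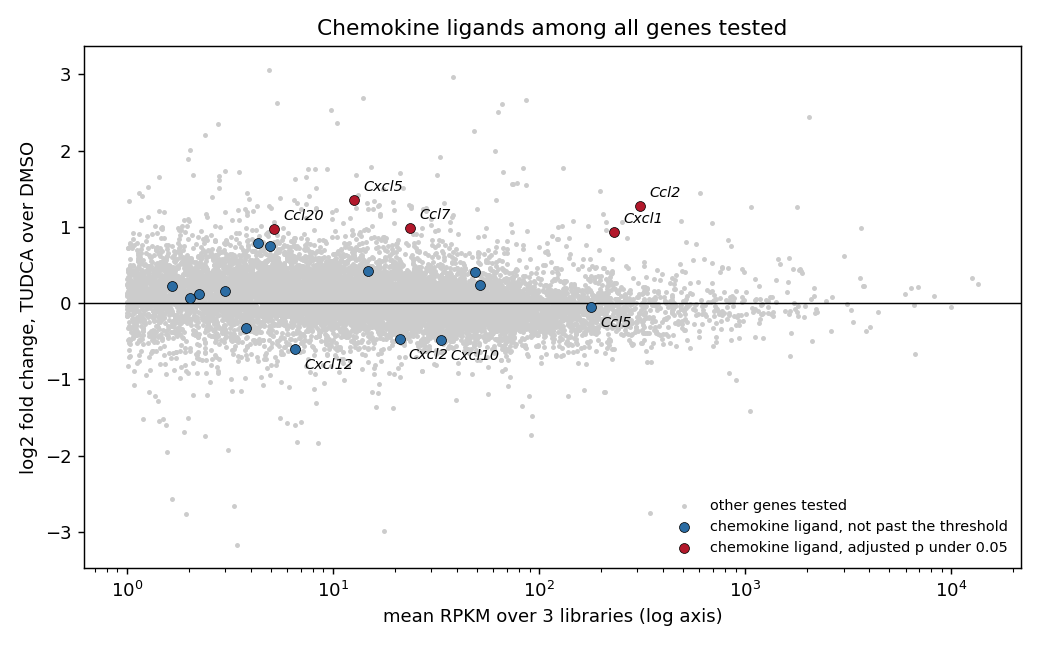
Log2 fold change of TUDCA over DMSO against mean RPKM on a log axis for the 11300 genes tested, with chemokine ligands in colour and the 5 called ones in red. Ccl2 and Cxcl1 lie above most genes of similar level, at 1.28 and 0.94, and Ccl5, at a like level, lies at -0.05.

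Of the 8 members between 0 and the filter, Cxcl17 and Cxcl13 had more reads in both TUDCA libraries. Cxcl17, a mucosal chemokine, had 8 and 6 reads in TUDCA (1.08 and 0.746 RPKM), against 1 read in DMSO (0.122 RPKM). The ratio had counting intervals of 1.18 to 392 and 0.742 to 281, so replicate 2 alone could not be told apart from DMSO. Cxcl13, the B cell attractant, had 11 and 9 reads in TUDCA (0.960 and 0.725 RPKM), against 3 in DMSO (0.237 RPKM), with counting intervals of 1.07 to 22.6 and 0.763 to 17.6. Both passed a filter at 0.3 RPKM only through the TUDCA libraries. Neither was called there, but no member was called at that filter, so this says nothing particular to them.

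The other 5 low members with reads in DMSO were Ccl8, Ccl12, Ccl24, Cxcl11 and Cx3cl1, at 0.182 to 1.09 RPKM there. Cx3cl1, the membrane-anchored fractalkine, had 0 and 8 reads in the TUDCA libraries, against 7 in DMSO. Ccl22 had 1 and 3 reads in the TUDCA libraries and none in DMSO. Ccl1, Ccl11, Ccl17, Ccl19, Ccl26, Cxcl15, Xcl1 and the pseudogene Ccl19-ps1 were listed at 0 in all libraries. A count of 0 allows up to 3 reads, which over a gene of 1 kb would be 0.307 and 0.284 RPKM in TUDCA and 0.278 RPKM in DMSO.

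Many members are neighbours on the chromosomes. In the RefSeq gene table, coding genes on chromosome 5 run in the order Cxcl5, Ppbp, Pf4, Cxcl3, Cxcl15, Cxcl1, Cxcl2. In this run the log2 fold changes were 1.35 for Cxcl5, 0.78 for Cxcl3, 0.94 for Cxcl1 and -0.47 for Cxcl2. Pf4 (platelet factor 4, or Cxcl4), a ligand outside the rule by its symbol, had 2.80 and 1.77 RPKM in TUDCA and 2.85 RPKM in DMSO and was not called. Ppbp (Cxcl7) had 0.0949 and 0 RPKM in TUDCA and 0.172 RPKM in DMSO. On chromosome 11, Ccl2 and Ccl7 adjoin and both rose, whereas Ccl11, Ccl12, Ccl8 and Ccl1 next to them had at most 6 reads in any library. A second run, Ccl5, Ccl9, Ccl6, Ccl3 and Ccl4, held no called gene, with log2 fold changes from -0.05 to 0.75.

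**Figure D4:**
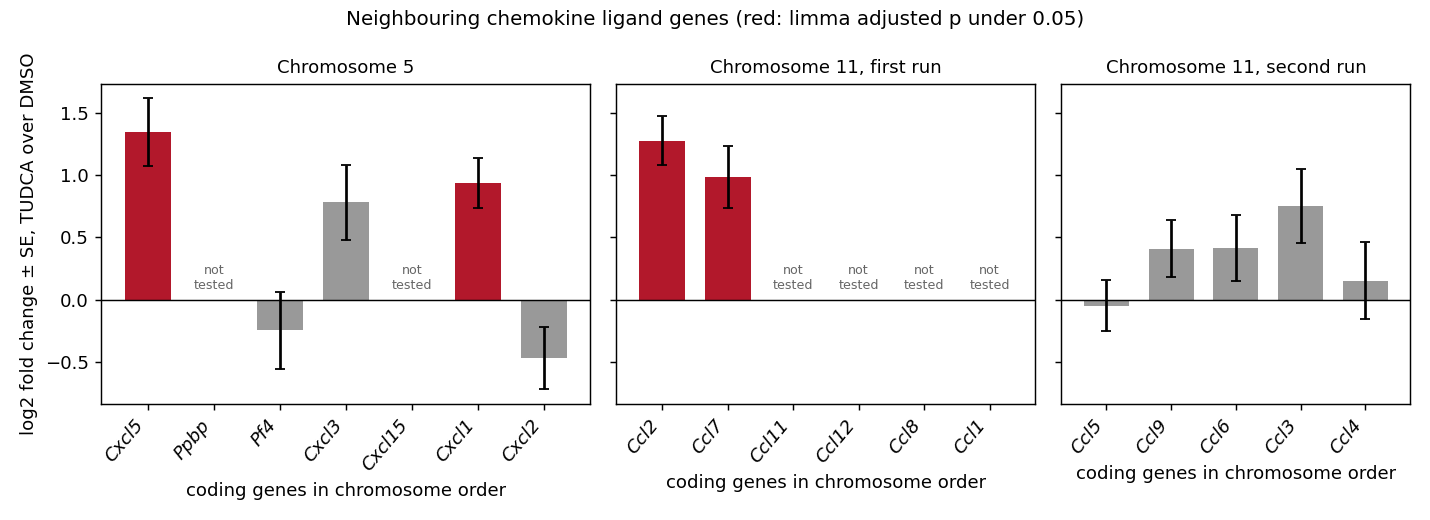
Log2 fold change ± SE of TUDCA over DMSO for 3 runs of neighbouring genes in chromosome order, with red bars where the limma adjusted p is under 0.05 and genes below 1 RPKM marked as not tested. Red and grey bars stand beside each other on chromosome 5, with Cxcl1 at 0.94 and Cxcl2 at -0.47.

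The receptors of these ligands had few transcripts in the cultures. Of 17 chemokine receptors examined, 6 were listed at 0 and none reached the level tested. Of 5 atypical receptors, Ccrl2 alone was tested, with 2.96 and 3.85 RPKM in TUDCA and 3.56 RPKM in DMSO, and was not called.

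Transcripts of the cytokines that induce chemokines were low in all libraries. Tnf had 0.661 and 0.854 RPKM in TUDCA and 0.898 RPKM in DMSO, Il1b had 0.634 and 0.819 RPKM in TUDCA and 0.574 RPKM in DMSO, and Il6 had 0.0943 and 0.261 RPKM in TUDCA and 0.256 RPKM in DMSO. Of the 18 genes in this list of cytokines and their receptors, 9 were tested. Of these 1 was called higher and none lower, beside 1.77% and 0.876% of all genes tested. That gene was Il1r1, the signalling receptor of interleukin-1, with 15.9 and 13.9 RPKM in TUDCA, against 7.53 RPKM in DMSO (log2 fold change 0.90, limma adjusted p = 0.0384). Its call was lost at 0.3 RPKM and with no filter, and also with quantile normalization, median centring and no variance trend. The interferon-gamma receptor chain Ifngr1 had 121.4 and 83.9 RPKM in TUDCA and 67.2 RPKM in DMSO and was not called (limma adjusted p = 0.150).

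Of 16 genes that NF-kappaB is known to drive, that form it or that inhibit it, all were tested. Of these 4 were called higher and none lower, beside 1.77% and 0.876% of all genes tested. The median log2 fold change was 0.30 over the list and 0.04 over all genes tested. The list was chosen with earlier results of these data known. Tnfaip3 (A20, a ubiquitin-editing brake on NF-kappaB) had 38.2 and 32.0 RPKM in TUDCA, against 14.5 RPKM in DMSO (log2 fold change 1.21, limma adjusted p = 7.16e-05). Zc3h12a (Regnase-1, an RNase that degrades inflammatory mRNAs) had 28.0 and 32.1 RPKM in TUDCA, against 15.6 RPKM in DMSO. Nfkbia (I-kappaB alpha) had 61.8 and 65.7 RPKM in TUDCA, against 34.3 RPKM in DMSO. Nfkbiz (I-kappaB zeta) had 17.1 and 15.7 RPKM in TUDCA, against 8.41 RPKM in DMSO. The calls of Zc3h12a, Nfkbia and Nfkbiz (limma adjusted p = 0.0132, 0.00608 and 0.0378) were lost with median centring. Those of Zc3h12a and Nfkbiz were also lost with quantile normalization, and those of Nfkbia and Nfkbiz with no variance trend. None of the 4, Tnfaip3 included, was called at 0.3 RPKM or with no filter. Nfkbib (I-kappaB beta), another inhibitor of NF-kappaB, named after its values were seen, had 50.9 and 61.6 RPKM in TUDCA and 85.3 RPKM in DMSO, a log2 fold change of -0.60 that missed the threshold (limma adjusted p = 0.149).

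Markers of other cells that make chemokines were present, and none of the tested macrophage markers was called. The summed level of 14 macrophage and Kupffer cell markers was 690.5 and 766.3 RPKM in TUDCA and 645.2 RPKM in DMSO, with 11 tested, none of the 14 listed at 0 and a median log2 fold change of 0.20. Cd14, a co-receptor for bacterial lipopolysaccharide, held most of that sum, with 400.2 and 452.3 RPKM in TUDCA and 326.4 RPKM in DMSO (limma adjusted p = 0.477). Without it the other 13 summed to 290.3 and 314.0 RPKM in TUDCA and 318.8 RPKM in DMSO. The tested macrophage marker of highest fold change, Vsig4, had 2.34 and 2.98 RPKM in TUDCA and 1.71 RPKM in DMSO (limma adjusted p = 0.732). The Kupffer marker Clec4f had 3.93 and 4.42 RPKM in TUDCA and 3.50 RPKM in DMSO, and Cd68 had 154.3 and 169.4 RPKM in TUDCA and 170.4 RPKM in DMSO. Neutrophil markers summed to 26.8 and 19.3 RPKM in TUDCA and 19.96 RPKM in DMSO, and endothelial markers to 16.1 and 14.9 RPKM in TUDCA and 18.9 RPKM in DMSO. Stellate and fibroblast markers summed to 13.3 and 11.7 RPKM in TUDCA and 15.5 RPKM in DMSO, and none of these 3 lists held a called gene. Their tested genes farthest from 0 in fold change were Camp (2.79 and 2.73 RPKM in TUDCA, 1.74 RPKM in DMSO), Stab1 (10.9 and 10.4 RPKM in TUDCA, 15.5 RPKM in DMSO) and Col3a1 (1.00 and 0.679 RPKM in TUDCA, 1.52 RPKM in DMSO). Of 10 T, B and NK cell markers 7 were listed at 0, and their sum was at most 0.453 RPKM in any library. Which cells made the transcripts of Ccl5 (174.7 RPKM or more) or of the other members was not tested.

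Some markers were called too, in both directions. In the cholangiocyte list 1 of 3 tested genes was called higher, beside 1.77% of all genes tested. It was Spp1 (osteopontin), with 767.5 and 578.2 RPKM in TUDCA and 387.5 RPKM in DMSO, while Krt19 and Sox9 were not called. Of the 8 hepatocyte markers, all tested, 1 was called higher, beside 1.77% of all genes tested. It was the transcription factor Hnf4a, with 198.6 and 191.2 RPKM in TUDCA and 115.0 RPKM in DMSO. The calls of Spp1 and Hnf4a (limma adjusted p = 0.00464 and 0.0123) were lost at 0.3 RPKM, with no filter, with median centring and with no variance trend. In the keratinocyte list Krt14, Krt1 and Trp63 were listed at 0 in all libraries. Krt10 had 1.64 and 1.89 RPKM in TUDCA and 1.85 RPKM in DMSO and was not called. Of the 4 tested genes of that list 3 were called lower, beside 0.876% of all genes tested. Krt5 had 15.5 and 14.5 RPKM in TUDCA and 29.5 RPKM in DMSO, and Lor had 2.60 and 3.73 RPKM in TUDCA and 7.11 RPKM in DMSO. Sprr1a had 5591 and 5626 RPKM in TUDCA and 8877 RPKM in DMSO. All 3 calls were lost at 0.3 RPKM and with no filter, and that of Sprr1a also with a filter at 5 RPKM, median centring and no variance trend. The part of these shifts in the chemokine values was not tested.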

How the data were processed

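RNA from 3 hepatocyte cultures (2 TUDCA, 1 DMSO) was captured on oligo(dT) beads and copied from random hexamers, per the labels' protocols. The authors deposited RPKM values, 1 table per library. HTSeq, Bowtie2, TopHat2 2.0.7 and CASAVA are named, without roles, in the submitters' processing notes. Genome build, annotation and strand setting were not given in the sources used here. Symbols came from GENCODE M21 by identifier and matched 32897 of 37620 identifiers. Library totals were recovered as the commonest greatest common divisor of 1e9 divided by RPKM, and whole reads resulted for all 19146 genes above 0. The gene length so obtained equalled the exon length in GENCODE M21 for 5 of 27 members with reads (Ccl3, Ccl4, Ccl7, Ccl8 and Cxcl17) and differed for the others.

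RPKM is not a count, so limma 3.58.1 (R 4.3.3) was run on log2(RPKM + 1), with a variance trend and Benjamini-Hochberg adjustment over the 11300 genes that averaged 1 RPKM or more. The fit assumes that DMSO, a single library, varies as the TUDCA pair does. The procedure was checked on simulated reads in which all 3 libraries had the same spread, so the check could not reach that assumption. No set test was run. Every member is accounted for, and of each other list the calls, up to 4 tested genes of largest change and set genes (Tnf, Il1b, Il6, Nfkbia, Pf4, Ppbp) are named. Clec4f, Cd68 and Nfkbib were named outside that rule. Members and lists were chosen with earlier results of these data known. Protein sequences were not used here. 1 gene was left out of the lists and is not reported here.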

Additional observations from a re-analysis of the deposited data

How the results depend on the processing

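There were 9 alternatives with a test. Pseudocount 0.1, a filter at 5 RPKM, median centring, no variance trend and robust estimation kept all 5 called members. Quantile normalization and voom kept 4, without Ccl20. At 2.77 RPKM in DMSO, Ccl20 passed the filter at 5 RPKM only through the TUDCA libraries. Its call at that filter is therefore no separate support. With a filter at 0.3 RPKM and with no filter, 0 members and 26 and 0 genes in all were called. The limma unadjusted p was below 0.05 for 1152 of 13384 and 1696 of 19146 genes. The nearest to the threshold there was Ccl2, with an adjusted p of 0.0529 at 0.3 RPKM. By the rule of size, 3 members in place of 1 were 2-fold in both TUDCA libraries at a pseudocount of 0.1, where the share of all genes was not counted. With 1 TUDCA library left there is no test, and the counts at least 2-fold from DMSO were 188 genes and 5 members (Ccl2, Cxcl5, Ccl20, Ccl3 and Cxcl3) without replicate 1, and 284 genes and 2 members (Ccl2 and Ccl7) without replicate 2. The other filters, no variance trend and robust estimation cannot change a fold change. Under pseudocount 0.1, quantile normalization, median centring and voom, those of the 5 called genes kept their sign, within 0.84 to 1.49. No paired analysis was possible because there was only 1 DMSO library, which also carries no replicate number. The causes of the lost calls were not tested. Depth limits the members under about 20 reads in every library, namely Ccl25, Ccl27a and those below the filter. It also limits Ccl4, with 15 and 28 reads in TUDCA and 19 in DMSO. The single DMSO library limits every comparison.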
